A study of Mus musculus with 77 samples.

Results

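The 40 genes described here encode proteins of the G2 phase and of mitosis, and they were chosen by name, by a rule that uses no measured value but with earlier results of these data known. All 40 were found among the 46078 genes of the count table and were followed over all 7 groups and through the single pools of 50 cells. The cells were pancreatic ductal organoids, three-dimensional cultures grown from the ducts of adult C57BL/6 mice. A doxycycline-inducible lentiviral vector drove GFP only, GFP joined to wild-type Neurogenin3 (WT Ngn3) or GFP joined to 6S-A Ngn3, a phosphomutant whose serines at 6 sites were changed to alanine. Ngn3 is the basic helix-loop-helix factor that starts endocrine differentiation in the embryonic pancreas. At 2 days of induction, GFP-positive cells were sorted from GFP only, WT Ngn3 and 6S-A Ngn3 organoids. At 8 days, GFP-positive WT Ngn3 and 6S-A Ngn3 cells were sorted, and the controls were cells without colour (no-color cells) of WT Ngn3 and of 6S-A Ngn3 organoids. Each group had 3 biological replicates, and the libraries of 1 replicate were pools of 50 cells. The 8-day samples of replicate 3 came from organoids of passage 5 and all others from passage 2. The no-color cells came from the transduced cultures and not from separate, untransduced organoids.

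Cells enter mitosis when Cdk1 bound to a B-type cyclin is activated by Cdc25 phosphatases, with the help of the kinases Plk1 and Aurka. Condensed chromosomes attach through kinetochores to the spindle, the spindle checkpoint holds anaphase until every kinetochore is attached, and the anaphase-promoting complex (APC/C) with its activator Cdc20 then marks cyclin B and securin for destruction. Most of these genes are transcribed mainly in G2 and mitosis, and they are therefore used as markers of proliferation. In the textbook account, the MuvB core with Mybl2 and Foxm1 activates them and the DREAM complex holds them silent in resting cells, through promoter elements called the cell cycle genes homology region (CHR) and the CCAAT box. Endocrine cells of the pancreas rarely divide, whereas ductal organoids proliferate in culture.

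Of 77 libraries, 76 passed the limits on spike-in share, reads and detected genes, with 1501002 to 9202142 reads on genes each. Summed within a biological replicate, the depth was 17757303 to 26627347 reads at 2 days and 2397470 to 17919627 at 8 days. A count of 3 reads corresponded to 0.11 to 0.157 CPM (counts per 1000000 reads, TMM-normalised) in the replicates of 2 days and to as much as 1.73 CPM at 8 days. Limits of this kind cover counting error only. Neurog3 lay between 89.6 and 206 CPM in the 6 Ngn3 replicates of 2 days and at most at 0.07 CPM in those of GFP only. At 8 days it lay between 6.85 and 46.1 CPM in the Ngn3 cells and at most at 0.99 CPM in the no-color cells. Ductal markers were present in every replicate, with summed levels from 10003 to 40131 CPM. The summed levels of the acinar, immune, endothelial and stromal lists reached at most 20.7, 16.02, 10.3 and 2.6 CPM in any replicate. A pool of 6S-A Ngn3 cells at 2 days (replicate 1, technical repeat 3) and a pool of 6S-A Ngn3 cells at 8 days (replicate 2, technical repeat 2) stood apart from the others of their group in these genes, and results are given with and without them below. Both were picked for a high level of these same genes, so leaving them out lowers the 6S-A Ngn3 values by construction. At 2 days, technical repeats 2 and 3 of biological replicates 2 and 3 were nearly identical in each group (6 pairs of libraries). Nothing in the labels says whether the biological replicates came from separate mice, so p-values measure the spread between these samples.

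**Figure D1:**
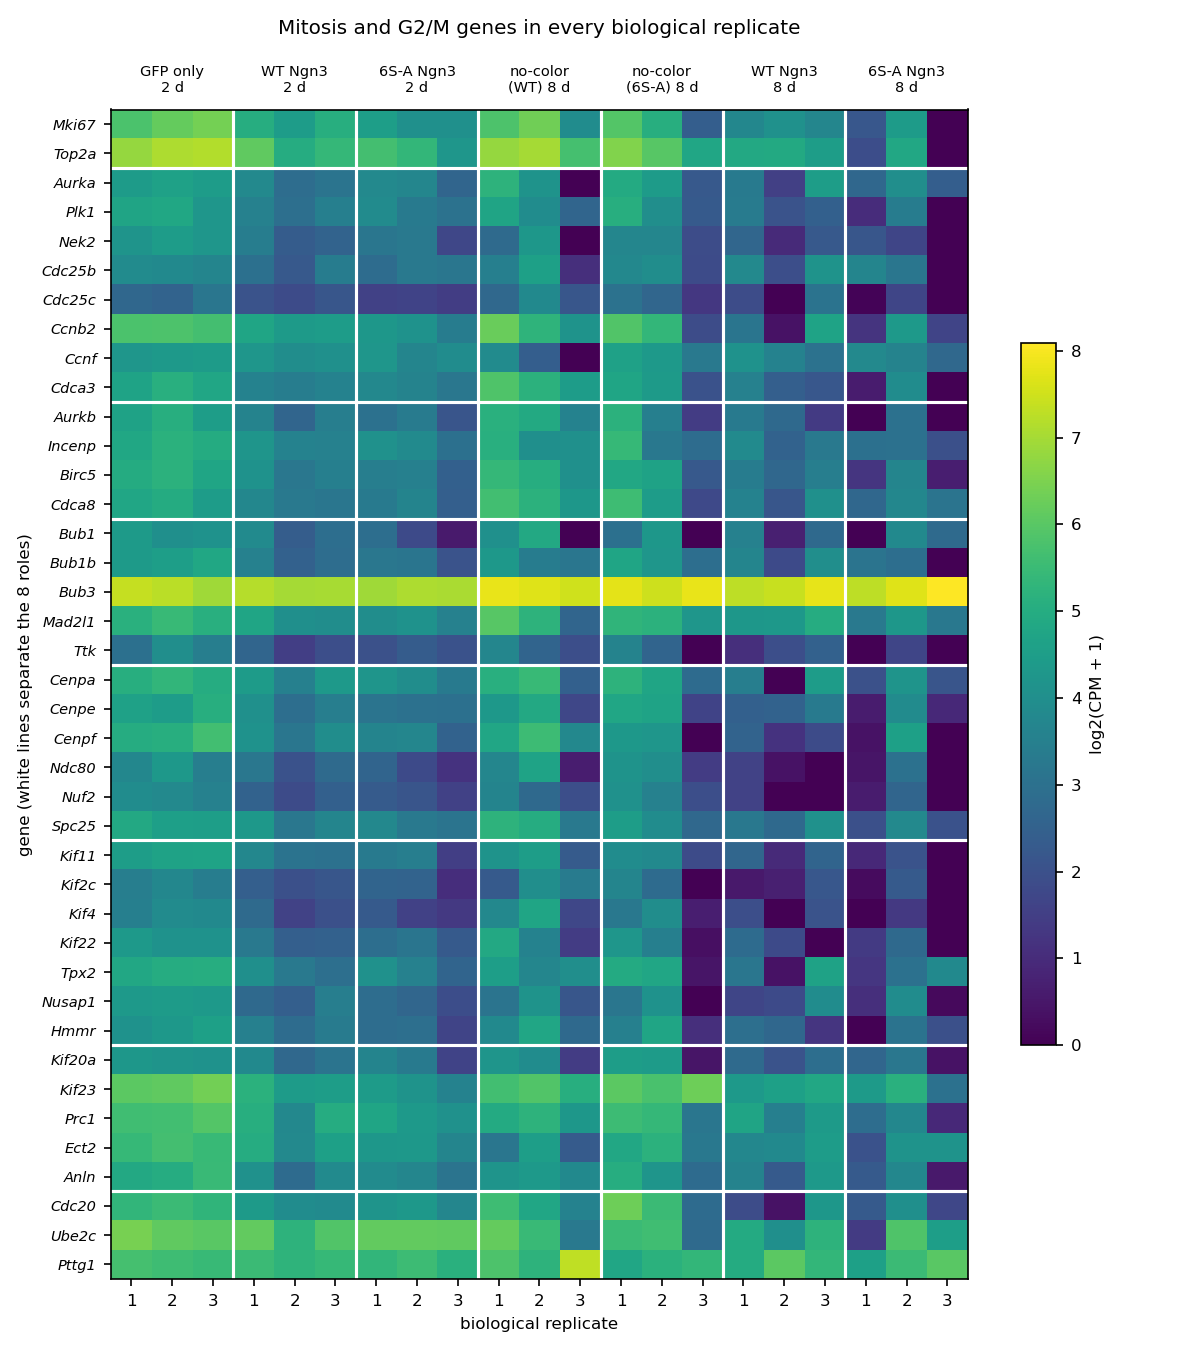
Level of the 40 genes (rows, grouped by role) in the 21 biological replicates (columns), as log2 of CPM + 1. The 3 GFP only columns are brighter than the 6 Ngn3 columns of 2 days for nearly every row, Bub3 is bright throughout, and the passage 5 columns (replicate 3 at 8 days) are dark in both no-color groups and in 6S-A Ngn3.

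At 2 days the mitotic genes fell with either form of Ngn3. Against GFP only, 30 of the 40 genes fell with WT Ngn3 and none rose, where 5.23% of the 23844 genes tested were called lower (adjusted p under 0.05 in the quasi-likelihood test of edgeR, with the Benjamini-Hochberg correction over all genes). With 6S-A Ngn3, 34 of the 40 fell and none rose, beside 8.62% of all genes called lower. The median log2 fold change of the 40 was -1.30 for WT and -1.60 for 6S-A Ngn3, against medians over all genes of 0.02 and 0.02. Every one of the 40 had a negative fitted value in both comparisons, from -1.75 to -0.12 for WT Ngn3 and from -2.43 to -0.07 when 6S-A Ngn3 was expressed. Both comparisons share the GFP only samples. In 36 of the 40 genes all 3 WT Ngn3 replicates lay below all 3 GFP only replicates, beside 13.2% of all genes. The count was also 36 for 6S-A Ngn3, beside 16.1% of all genes. Bub3, Ccnf, Pttg1 and Ube2c were the exceptions in both. In a bulk pool, fewer dividing cells and less of these transcripts in each dividing cell cannot be told apart. The count for WT Ngn3 was lower without some replicates, and so was the share of all genes called lower. It was 16 without replicate 2 of GFP only (3.59% of all genes), 18 without replicate 2 of WT Ngn3 (3.49%), 20 to 22 without replicates 1 or 3 of GFP only or replicate 3 of WT Ngn3 (4.01% to 4.21%), and 4 when replicate 2 was left out of all 3 groups (1.68%).

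**Figure D2:**
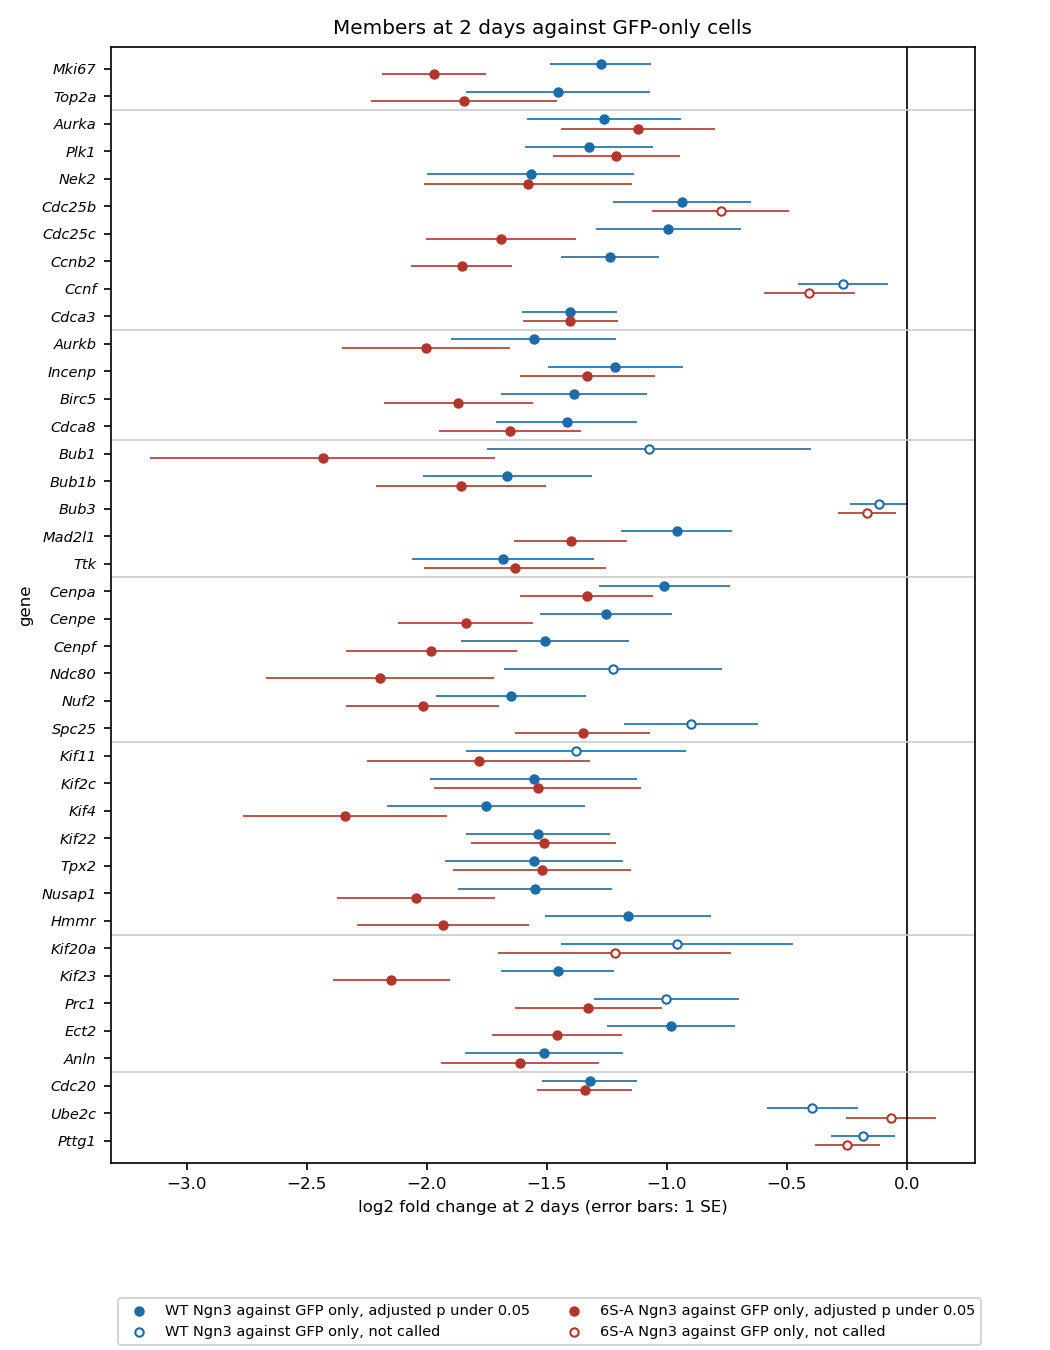
Log2 fold change of each gene at 2 days against GFP only (x axis, with bars of 1 SE), for WT Ngn3 in blue and 6S-A Ngn3 in red, and filled where the adjusted p was under 0.05. All points lie left of 0, with Ccnf, Bub3, Ube2c and Pttg1 nearest to it.

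RefSeq promoter windows (GRCm38.p6) were matched for 35 of the 40 genes, and the 250 bases before the start were searched on both strands for elements known from G2/M promoters. The motif TTTGAA, a CHR form, was in 12 of the 35 and in 18.3% of 27025 gene symbols. TTCGAA, another CHR form, was in 2 of 35 and in 1.55% of all. CCAAT was in 27 of 35 and in 37.5% of all. A CHR form together with CCAAT was in 12 of 35 and in 7.93% of all. The 4 E2F forms TTTCGCGC, TTTGGCGC, TTCCCGCC and TTTCCCGC were in 0 of 35 each, and in 0.3%, 0.485%, 2.13% and 1.03% of all, and the last 2 of these overlap each other in sequence. The 12 genes with both were Bub1b, Bub3, Ccnb2, Ccnf, Cdc20, Ect2, Kif11, Kif22, Mki67, Prc1, Top2a and Ube2c, which include Bub3, Ccnf and Ube2c, whose differences at 2 days did not pass the test.

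The 4 stretches here are shown to let the elements be seen beside the levels: 3 genes that fell and Ccnf, which did not pass the test. They hold no annotated exon, run 5′ to 3′ on the strand of the gene, and carry the CHR forms and CCAAT, or their reverse complements TTCAAA and ATTGG, in capitals. Mki67 is at chr7:135716452-135716587 (minus strand), Ccnb2 at chr9:70421555-70421741 (minus strand), Cdc20 at chr4:118437353-118437416 (minus strand) and Ccnf at chr17:24251492-24251576 (minus strand).
Mki67: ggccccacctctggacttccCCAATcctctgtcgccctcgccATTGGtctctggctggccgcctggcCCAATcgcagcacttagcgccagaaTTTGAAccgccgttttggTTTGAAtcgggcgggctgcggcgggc
Ccnb2: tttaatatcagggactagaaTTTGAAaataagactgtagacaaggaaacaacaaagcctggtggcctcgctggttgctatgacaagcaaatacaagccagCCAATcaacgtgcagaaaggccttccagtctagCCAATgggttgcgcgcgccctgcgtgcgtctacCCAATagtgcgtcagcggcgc
Cdc20: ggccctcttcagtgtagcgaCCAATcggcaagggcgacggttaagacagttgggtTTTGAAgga
Ccnf: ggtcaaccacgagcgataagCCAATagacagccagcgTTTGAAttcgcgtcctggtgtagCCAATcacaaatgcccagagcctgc
In Mki67 the stretch held 3 CCAAT matches and 2 of TTTGAA, in Ccnb2 3 and 1, in Cdc20 1 and 1, and in Ccnf 2 and 1. A match describes the letters of these windows and no binding was measured. Ccnf thus carries the same kind of letters as Ccnb2 while its level differed by -0.27 ± 0.19 with WT and -0.41 ± 0.19 with 6S-A Ngn3 (edgeR adjusted p = 0.47 and 0.17).

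Mki67 encodes Ki-67, which coats mitotic chromosomes and is the usual marker of proliferating cells. Its level in GFP only cells was 54.5, 71.6 and 82.7 CPM in replicates 1, 2 and 3. In WT Ngn3 cells it was 31.9, 21.1 and 32.7 CPM and in 6S-A Ngn3 cells 22.1, 15.6 and 15.6 CPM. Both Ngn3 groups lay below all GFP only replicates, and they overlapped each other by 1 replicate. The log2 fold change was -1.28 ± 0.21 (SE) for WT Ngn3 (edgeR adjusted p = 0.0011) and -1.97 ± 0.22 for 6S-A Ngn3 (edgeR adjusted p = 2.3e-05). Top2a, the topoisomerase that untangles sister chromatids, was at 110.4, 135 and 140.5 CPM in GFP only cells. It was at 68.2, 30.9 and 40.7 CPM with WT Ngn3 and at 50.1, 39.6 and 17.9 CPM with 6S-A Ngn3, so that both Ngn3 groups lay below GFP only and overlapped each other. Its log2 fold changes were -1.45 ± 0.38 and -1.84 ± 0.39 (edgeR adjusted p = 0.039 and 0.0094).

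Among the 8 kinases, phosphatases and cyclins of mitotic entry, 7 fell with WT and 6 with 6S-A Ngn3. Ccnb2, a B-type cyclin that activates Cdk1, was at 54.0, 56.2 and 50.1 CPM in GFP only cells, 26.1, 20.05 and 21.3 CPM with WT Ngn3 and 18.6, 16.2 and 9.55 CPM with 6S-A Ngn3. The 3 groups did not overlap. All 6S-A Ngn3 replicates lay below all WT Ngn3 replicates in only 3 of the 40 genes, beside 1238 of 23844 genes tested. The fold change against GFP only was -1.24 ± 0.20 for WT and -1.86 ± 0.21 for 6S-A Ngn3 on the log2 scale (edgeR adjusted p = 0.0011 and 2.6e-05). Cdca3, a trigger of mitotic entry that helps to remove the kinase Wee1, went from 25.1, 33.0 and 26.6 CPM to 11.0, 9.68 and 11.0 CPM with WT Ngn3 and 12.6, 11.3 and 8.13 CPM with 6S-A Ngn3. Its log2 fold changes were -1.41 ± 0.20 and -1.40 ± 0.20 (edgeR adjusted p = 0.0003 and 0.00018). The kinases Aurka, Plk1 and Nek2 fell in both comparisons, by log2 values between -1.58 and -1.12. Cdc25c, a phosphatase that activates Cdk1, also fell in both. Its sister phosphatase Cdc25b passed the test with WT Ngn3 (-0.94 ± 0.29, edgeR adjusted p = 0.049) and not with 6S-A Ngn3 (-0.78 ± 0.29, edgeR adjusted p = 0.080). Over 21 alternatives, not counting single technical repeats, the WT Ngn3 calls of Cdc25c, Cdc25b and Top2a were kept in 8, 9 and 9, while the 6S-A Ngn3 call of Cdc25c was kept in 21. The alternative that kept all 77 libraries is among the 21 and held the same 2-day data as the main fit. Ccnf, the F-box cyclin, stayed at 11.9 to 20.8 CPM over the 9 replicates and was called in neither comparison.

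The chromosomal passenger complex, in which the kinase Aurkb with Incenp, Birc5 and Cdca8 corrects faulty spindle attachments, fell as a whole: 4 of its 4 genes were called with each form of Ngn3. Cdca8 was at 26.6, 30.6 and 21.1 CPM in GFP only cells, at 12.4, 8.58 and 8.03 CPM with WT Ngn3 and at 9.03, 11.4 and 4.51 CPM with 6S-A Ngn3. Birc5 (survivin) was at 30.4, 35.5 and 26.2 CPM, 16.4, 8.22 and 10.3 CPM, and 10.1, 10.6 and 4.60 CPM in the same order. For both genes every Ngn3 replicate was below every GFP only replicate. The log2 fold changes over the 4 genes ran from -1.56 to -1.22 with WT Ngn3 and from -2.004 to -1.33 with 6S-A Ngn3.

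Of the 5 spindle checkpoint genes, 3 fell with WT and 4 with 6S-A Ngn3. Mad2l1, whose product inhibits Cdc20 at unattached kinetochores, was at 34.0, 42.5 and 33.1 CPM in GFP only cells, 26.1, 15.1 and 14.6 CPM with WT Ngn3 and 14.6, 16.3 and 10.6 CPM with 6S-A Ngn3. Its fold change on the log2 scale was -0.96 ± 0.23 for WT and -1.40 ± 0.23 for 6S-A Ngn3 (edgeR adjusted p = 0.014 and 0.00073). Bub1 had the widest error of the 40 genes. It was at 20.3, 15.4 and 16.6 CPM in GFP only cells, at 13.6, 4.24 and 6.65 CPM with WT Ngn3 (-1.07 ± 0.68, edgeR adjusted p = 0.42) and at 6.60, 2.55 and 0.49 CPM with 6S-A Ngn3 (-2.43 ± 0.72, edgeR adjusted p = 0.045), a call kept in 12 of the 21 alternatives. Bub3, which binds Bub1 and BubR1 at kinetochores, was among the 4 genes whose groups overlapped. It was at 167, 150.4 and 121 CPM in GFP only cells, 144, 128 and 129 CPM with WT Ngn3 and 122, 135 and 133 CPM with 6S-A Ngn3. These groups overlapped, and the differences of -0.12 ± 0.12 and -0.17 ± 0.12 did not pass the test (edgeR adjusted p = 0.67 and 0.43).

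All 6 centromere and kinetochore genes fell with 6S-A Ngn3, and 4 of the 6 fell with WT Ngn3. Cenpa, the histone H3 variant of centromeres, was at 32.6, 39.2 and 31.4 CPM in GFP only cells, at 20.8, 10.4 and 19.5 CPM with WT Ngn3 and at 17.6, 14.6 and 8.75 CPM with 6S-A Ngn3. Cenpf, a large kinetochore protein that accumulates in G2, was at 31.4, 32.2 and 48.8 CPM, 16.6, 8.01 and 14.6 CPM, and 11.6, 12.1 and 4.87 CPM. Again no Ngn3 replicate of either gene reached the lowest GFP only replicate. Ndc80, Nuf2 and Spc25 encode parts of the complex that binds microtubules. Nuf2 fell with both proteins, while Ndc80 (-1.22 ± 0.45, edgeR adjusted p = 0.12) and Spc25 (-0.90 ± 0.28, edgeR adjusted p = 0.052) missed the threshold for WT Ngn3.

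Spindle motors and microtubule proteins gave 6 calls of 7 with WT Ngn3 and 7 of 7 with 6S-A Ngn3. Tpx2, which activates Aurka on the spindle, was at 28.1, 31.5 and 31.5 CPM in GFP only cells, 15.3, 8.69 and 6.75 CPM with WT Ngn3 and 15.99, 10.7 and 5.09 CPM with 6S-A Ngn3. Hmmr, a spindle assembly protein, was at 16.3, 18.9 and 23.4 CPM, 10.4, 6.23 and 9.36 CPM, and 6.46, 6.77 and 2.19 CPM. The chromokinesin Kif4 had the most negative value of all 40 genes with WT Ngn3 (-1.75 ± 0.41, edgeR adjusted p = 0.012), and 15.1% of its exon bases overlap a gene on the other strand. Kif11, the motor that separates the spindle poles, was the member of this group that missed the threshold with WT Ngn3 (-1.38 ± 0.46, edgeR adjusted p = 0.083).

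Cytokinesis genes fell in 3 of 5 cases with WT Ngn3 and in 4 of 5 with 6S-A Ngn3. Kif23, the motor of the central spindle, was at 64.6, 67.8 and 81.2 CPM in GFP only cells, at 34.8, 20.9 and 21.6 CPM with WT Ngn3 and at 20.5, 16.7 and 11.0 CPM with 6S-A Ngn3. The 3 groups did not overlap, but 6S-A Ngn3 lay wholly below WT Ngn3 in only 3 of the 40 genes, beside 1238 of 23844 genes. The log2 fold changes of Kif23 were -1.46 ± 0.24 and -2.15 ± 0.24 (edgeR adjusted p = 0.0011 and 3.5e-05). Prc1, which bundles the midzone microtubules, was at 47.2, 48.7 and 59.5 CPM, 32.8, 12.7 and 31.4 CPM, and 26.0, 19.8 and 16.2 CPM, and was called with 6S-A Ngn3 (-1.33 ± 0.31, edgeR adjusted p = 0.010) and not with WT Ngn3 (-1.002 ± 0.30, edgeR adjusted p = 0.055). Kif20a was called in neither comparison (-0.96 ± 0.48 and -1.22 ± 0.49, edgeR adjusted p = 0.28 and 0.12). The unstated strand setting leaves Kif20a uncertain, since 29.3% of its exon bases overlap Cdc23 on the other strand. The same share is 11.1% for Prc1 and 12.7% for Cdc25c.

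The APC/C and anaphase genes split. Cdc20, the activator that starts anaphase, was at 39.3, 44.5 and 38.1 CPM in GFP only cells, 20.4, 14.3 and 13.7 CPM with WT Ngn3 and 17.05, 19.0 and 12.1 CPM with 6S-A Ngn3, and fell in both (-1.32 ± 0.20 and -1.34 ± 0.20, edgeR adjusted p = 0.00048 and 0.00026). Ube2c, the ubiquitin-conjugating enzyme of the APC/C, was at 84.5, 68.5 and 64.0 CPM in GFP only cells, 69.1, 36.5 and 58.1 CPM with WT Ngn3 and 69.8, 69.4 and 67.7 CPM with 6S-A Ngn3. Pttg1 (securin), which holds separase inactive, was at 50.7, 46.9 and 42.9 CPM, 44.1, 37.5 and 41.2 CPM, and 39.0, 45.3 and 34.2 CPM. Both genes overlapped between groups and neither passed the test. Of the exon bases of Ube2c, 22.8% overlap Tnnc2 on the other strand. Per kilobase of exon, Bub3, Pttg1 and Ube2c had the highest mean levels of the 40 genes over all 21 replicates, at 24.7, 23.9 and 17.8 CPM per kilobase, and the lowest was Cdc25c at 0.80 CPM per kilobase. The order differed between groups, and in GFP only cells Ccnb2 was highest, at 34.9 CPM per kilobase against 27.8 for Ube2c, 23.4 for Pttg1 and 20.8 for Bub3.

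**Figure D3:**
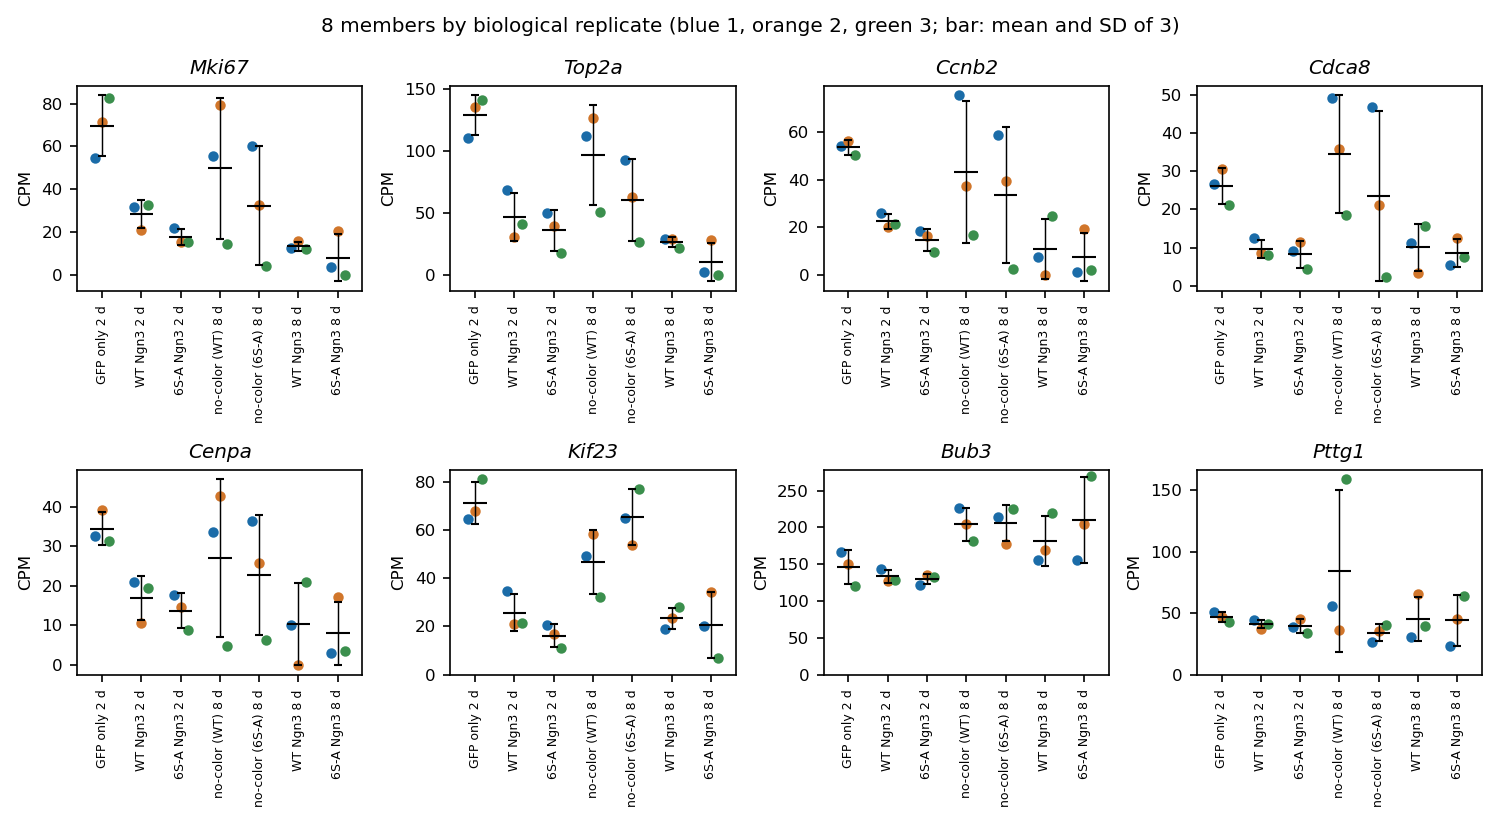
CPM of 8 genes in each biological replicate (points), with the mean and SD of 3 replicates (bars), for the 7 groups. Mki67, Top2a, Ccnb2, Cdca8, Cenpa and Kif23 are lower in both Ngn3 groups than in GFP only at 2 days, and Bub3 and Pttg1 overlap between those groups.

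The calls for the 2 forms of Ngn3 were shared for 29 genes. Cdc25b was called with WT Ngn3 only, and Bub1, Kif11, Ndc80, Prc1 and Spc25 with 6S-A Ngn3 only. The direct comparison of 6S-A with WT Ngn3 called 0 of the 40 genes (edgeR), beside 0.0126% of all genes. DESeq2 also called 0 of the 40, with 59 lower and 38 higher among all genes. Of the 40, 31 had the lower fitted value with 6S-A Ngn3 and the median difference was -0.33 on the log2 scale, from -1.36 to 0.33. At an unadjusted p under 0.05 there were 5 of the 40, beside 5.79% of all genes, and they included Mki67 (-0.70 ± 0.21), Ccnb2 (-0.62 ± 0.21) and Kif23 (-0.69 ± 0.24), each with an edgeR adjusted p of at least 0.53. The median of the SE over the 40 was 0.31 on this scale. Without the 6S-A Ngn3 pool that stood apart, the median difference was -0.71, the comparison again called 0 of the 40 genes, and 17 had an unadjusted p under 0.05, beside 5.86% of all genes. Against GFP only, leaving that pool out gave 20 calls with WT Ngn3, beside 5.31% of all genes called lower. It gave 35 calls with 6S-A Ngn3, beside 8.83%. No WT Ngn3 or GFP only pool was removed there, and the groups of 2 days share an estimate of the spread. The cause of the lower WT Ngn3 count was not tested. That pool was picked for its high level of these genes, so leaving it out lowers the 6S-A Ngn3 values by construction. With all pools and the replicate number as a block, 10 of the 40 had an unadjusted p under 0.05, beside 9.24% of all genes, and 0 were called between 6S-A and WT Ngn3, where 97 of all genes were called lower and 50 higher.

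Other genes of the pathway, from lists that hold none of the 40, also fell at 2 days, in shares that differed between lists. Among 7 genes of the Cdk1 module and its regulators, 5 fell with WT and 7 with 6S-A Ngn3. Cdk1, the kinase of mitotic entry, was at 89.3, 98.9 and 75.3 CPM in GFP only cells, at 43.0, 29.4 and 44.2 CPM with WT Ngn3 and at 28.7, 39.4 and 17.9 CPM with 6S-A Ngn3. Ccnb1, its main cyclin partner, was at 17.97, 14.5 and 18.7 CPM, 5.24, 3.09 and 7.59 CPM, and 7.10, 6.92 and 3.53 CPM. Both were below GFP only in every Ngn3 replicate. Among 30 other centromere and kinetochore genes 11 and 19 fell, among 28 other spindle, centrosome and cytokinesis genes 15 and 20, and among 15 condensin and cohesin genes 8 and 8. DNA replication genes fell in 12 of 20 cases with WT Ngn3 and in 15 of 20 with 6S-A Ngn3, with summed levels of 741 to 1117 CPM in GFP only cells, 432 to 651 CPM with WT Ngn3 and 403 to 537 CPM with 6S-A Ngn3.

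Regulators of the program were less uniform. In a list of 13 genes of G2/M transcription, 3 fell with each protein, namely Foxm1, Mybl2 and Rbl1, and the call of Mybl2 was kept in 12 of 21 alternatives with WT Ngn3 and in 14 with 6S-A Ngn3. The median log2 fold changes were -0.13 and -0.14. Foxm1, the forkhead activator of G2/M genes, was at 13.1, 16.5 and 12.7 CPM in GFP only cells, 6.27, 3.98 and 6.90 CPM with WT Ngn3 and 3.99, 4.74 and 4.60 CPM with 6S-A Ngn3. Mybl2 was at 4.32, 9.52 and 9.16 CPM, 3.57, 3.45 and 3.94 CPM, and 2.93, 4.11 and 3.88 CPM. Of 17 genes for APC/C subunits and activators, Fbxo5, an inhibitor of the complex, was the 1 that fell in each comparison. Among 8 Cdk inhibitors none was called with WT Ngn3. With 6S-A Ngn3, Cdkn1a (p21) rose (0.70 ± 0.17, edgeR adjusted p = 0.0086) while Cdkn1b and Cdkn2c fell. Cdkn1a was at 576, 504 and 674 CPM in GFP only cells, 692, 688 and 1022 CPM with WT Ngn3 (0.46 ± 0.17, edgeR adjusted p = 0.098) and 852, 938 and 1069 CPM with 6S-A Ngn3.

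Some markers of cell type moved beside these genes at 2 days. The summed ductal level was 17271 to 18929 CPM in GFP only cells, 11352 to 12148 CPM with WT Ngn3 and 10003 to 10401 CPM with 6S-A Ngn3. Spp1, at 7798 to 9882 CPM in GFP only cells, held much of that sum. With each protein 5 of the 10 ductal markers were called lower and 0 higher. Krt7 and Sox9 overlapped between the groups. Cdh1 went the other way, at 536 to 877 CPM in GFP only, 947 to 1320 CPM in WT Ngn3 and 907 to 1301 CPM in 6S-A Ngn3 cells. The summed level of 6 endocrine hormones was at most 0.84 CPM in GFP only cells, 54.5 to 190.1 CPM with WT Ngn3 and 203 to 657 CPM with 6S-A Ngn3, and 2 to 4 of the 6 hormones were at 0 in every replicate of the Ngn3 groups. The summed endothelial level was 0.65 to 1.5 CPM in GFP only, 1.53 to 5.87 CPM in WT Ngn3 and 2.63 to 10.3 CPM in 6S-A Ngn3 cells, where Pecam1 rose with 6S-A Ngn3 (4.08 ± 1.12, edgeR adjusted p = 0.020), and 1 to 2 of the 4 markers were at 0 in each 6S-A Ngn3 replicate. The summed acinar level was 3.33 to 6.80 CPM, 1.94 to 3.53 CPM and 3.43 to 5.45 CPM in the same order, where Cela1 fell with WT Ngn3 (-2.04 ± 0.49, edgeR adjusted p = 0.013) and 3 to 5 of the 8 markers were at 0. The part of these shifts in the fall of the mitotic genes was not tested.

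Single pools showed how the level was spread over the pools of a group. The ranges and counts below run across its biological replicates, so spread within and between replicates is mixed in them. Pools of the same replicate are technical repeats and not independent samples. Leaving 1 of each pair of near-identical libraries aside, 16 pools were counted in each 2-day group. The summed level of the 40 genes in GFP only pools had a lowest value of 715 CPM, a median of 1434 CPM and a highest value of 1869 CPM. In WT Ngn3 pools these values were 363, 663 and 1252 CPM, and 8 of the 16 pools lay below the lowest GFP only pool. In 6S-A Ngn3 pools they were 255, 391 and 1952 CPM, and 12 of 16 lay below it. The highest 6S-A Ngn3 pool, in replicate 1, was thus above every GFP only pool, while the 3 other 6S-A Ngn3 pools over 715 CPM reached at most 1128 CPM. Without Bub3, Ube2c, Pttg1 and Ccnf, left out here after their values were seen, the median sum over the other 36 genes was 1146 CPM in GFP only, 445 CPM in WT Ngn3 and 167 CPM in 6S-A Ngn3 pools, and 8 and 12 of 16 pools again lay below the lowest GFP only pool, at 492 CPM. Every one of the 40 genes had reads in each of the 16 GFP only pools. That held for 9 of 16 WT Ngn3 pools and 5 of 16 6S-A Ngn3 pools, where as many as 6 and 13 genes had no read. Mki67 spanned 17.3 to 136 CPM in GFP only pools, 0 to 63.6 CPM in WT Ngn3 pools and 1.70 to 88.0 CPM in 6S-A Ngn3 pools, with medians of 64.2, 36.1 and 7.44 CPM. Bub3 had similar medians of 152, 144 and 136 CPM in the 3 groups of pools.

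**Figure D4:**
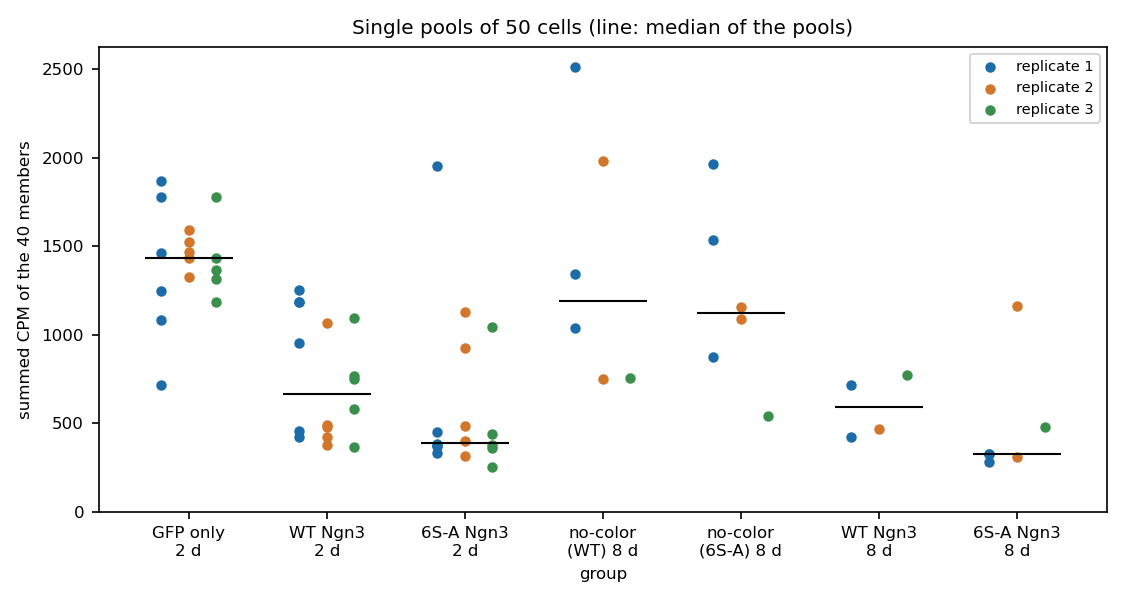
Summed CPM of the 40 genes in single pools of 50 cells (points, coloured by biological replicate), with the median of each group's pools as a line. GFP only pools at 2 days lie between 715 and 1869 CPM, 12 of 16 6S-A Ngn3 pools lie under all of them, and 1 pool of replicate 1 reaches 1952 CPM.

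With 1 pool in place of 6 for each replicate, the calls at 2 days depended on the pool. Taking technical repeats 1, 2, 3, 4, 5 and 6 alone, the test against GFP only called 0, 23, 1, 0, 1 and 0 of the 40 genes with WT Ngn3, where 209, 330, 202, 102, 369 and 328 of all genes were called lower. The counts with 6S-A Ngn3 were 1, 29, 0, 4, 29 and 0, where 484, 511, 450, 310, 1230 and 842 of all genes were. The median log2 fold change was negative each time, from -1.82 to -0.74 for WT Ngn3 and from -3.49 to -0.76 for 6S-A Ngn3. Between 6S-A and WT Ngn3 the median was between -2.21 and 0.52, and only technical repeat 5 gave calls, which were Bub1, Cenpe and Ndc80, with 23 lower and 6 higher among all genes.

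At 8 days the fitted values were again mostly negative and none was called by edgeR. Against the mean of both no-color groups, 0 of the 40 genes were called with WT Ngn3, beside 0.173% of 19696 genes called lower. With 6S-A Ngn3 it was 0 of the 40, beside 0.34%. At an unadjusted p under 0.05 there were 3 and 11 of the 40, beside 10.5% and 12.1% of all genes. DESeq2 called 0 and 5 of the 40 lower, with 200 and 353 lower among all genes. The median log2 fold change was -1.25 for WT Ngn3 (38 of 40 negative) and -1.77 for 6S-A Ngn3 (39 of 40 negative). The errors were wider than at 2 days. The median SE over the genes was 1.02 and 1.05 against 0.30 and 0.31 at 2 days. In 2 of the 40 genes, Kif23 and Nuf2, all WT Ngn3 replicates lay below all 6 no-color replicates, beside 2.26% of all genes, and with 6S-A Ngn3 this held for 0 of the 40, beside 2.2%.

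The replicates of 8 days were far apart. The summed level of the 40 genes was 1428, 1330 and 693 CPM in no-color cells of WT Ngn3 organoids and 1381, 1077 and 499 CPM in those of 6S-A Ngn3 organoids. It was 557, 443 and 726 CPM in WT Ngn3 cells and 309, 738 and 446 CPM in 6S-A Ngn3 cells. In replicates 1 and 2 both Ngn3 groups thus lay below both no-color groups, and in replicate 3, of passage 5, WT Ngn3 lay above both and 6S-A Ngn3 below both. Bub3 made up 271 of the 446 CPM in 6S-A Ngn3 replicate 3. Set against the mean log2(CPM + 1) of the no-color replicates of the same number, 38, 38 and 11 of the 40 genes were lower in WT Ngn3 replicates 1, 2 and 3, with median differences of -1.56, -2.14 and 0.99. In 6S-A Ngn3, 39, 36 and 31 genes were lower, with medians of -3.13, -0.91 and -1.13. The same measure at 2 days gave 39, 40 and 39 genes with WT Ngn3 and 39, 39 and 38 with 6S-A Ngn3. Each 8-day sample of replicate 3 was a single pool, so that passage, replicate and pool cannot be told apart. With replicate 3 left out of every 8-day group, 1 gene was called with WT Ngn3, Cdc20 (-4.76, edgeR adjusted p = 0.035), with 21 lower among all genes, and 0 with 6S-A Ngn3, with 22 lower.

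**Figure D5:**
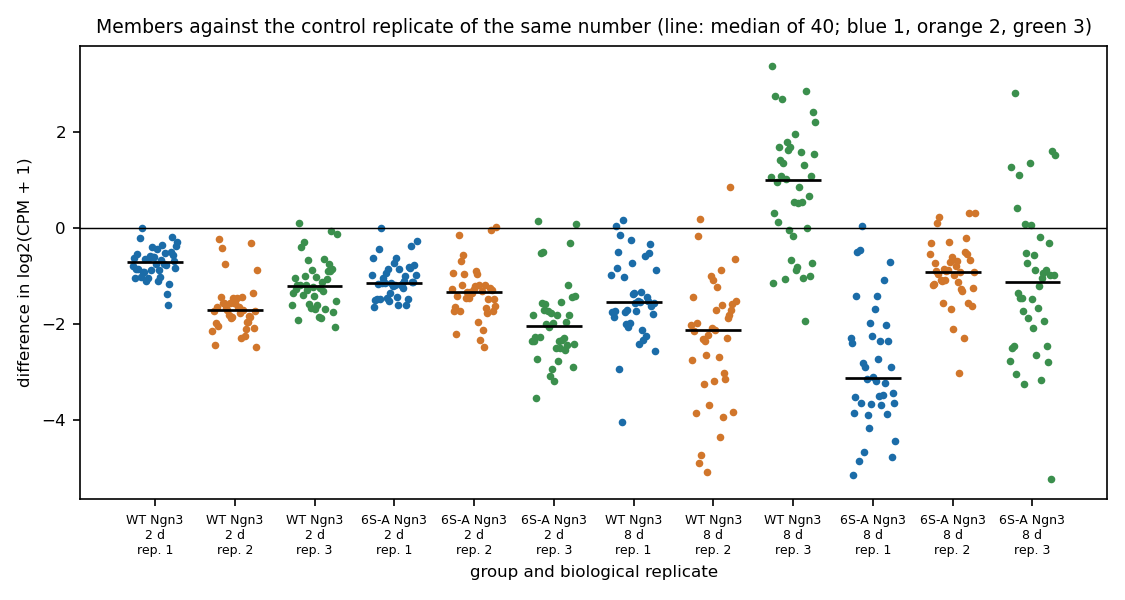
Difference of each of the 40 genes in log2(CPM + 1) from the control of the same replicate number (points, with the median as a line), for GFP only at 2 days and the mean of both no-color groups at 8 days. All 6 medians of 2 days lie between -2.04 and -0.72, and at 8 days WT Ngn3 replicate 3 stands above 0 with a median of 0.99.

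Mki67 shows the 8-day pattern. It was at 55.7, 79.3 and 14.4 CPM in no-color cells of WT Ngn3 organoids, 60.1, 32.9 and 4.30 CPM in those of 6S-A Ngn3 organoids, 12.4, 15.99 and 12.1 CPM in WT Ngn3 cells and 3.57, 20.5 and 0 CPM in 6S-A Ngn3 cells. The value of 0 allows a level of up to 0.46 CPM at that depth. The differences of -1.57 ± 1.08 and -2.32 ± 1.12 did not pass the test (edgeR adjusted p = 0.67 and 0.45). Top2a was at 112, 126 and 50.7 CPM, then 92.4, 62.4 and 26.4 CPM in the no-color groups, 28.6, 28.8 and 21.7 CPM in WT Ngn3 cells and 2.72, 27.8 and 0 CPM in 6S-A Ngn3 cells. Ccnb2 was at 75.2, 37.4 and 16.7 CPM, then 58.7, 39.5 and 2.70 CPM in the no-color groups, 7.78, 0.32 and 24.9 CPM in WT Ngn3 cells and 1.33, 19.2 and 2.15 CPM in 6S-A Ngn3 cells. Their Ngn3 replicates overlapped the passage 5 controls. Kif23 had the smallest error among these, at 49.2, 58.4 and 32.2 CPM, then 64.8, 53.8 and 77.2 CPM in the no-color groups, 19.1, 23.4 and 27.9 CPM in WT Ngn3 cells and 20.4, 34.3 and 7.06 CPM in 6S-A Ngn3 cells, and its log2 fold changes were -1.23 ± 0.43 and -1.42 ± 0.43 (edgeR adjusted p = 0.27 and 0.13).

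Cdca8 and Cenpa were also lowest in the passage 5 replicate of each no-color group. Cdca8 was at 49.0, 35.9 and 18.4 CPM, then 46.7, 21.1 and 2.46 CPM in the no-color groups, against 11.1, 3.52 and 15.6 CPM in WT Ngn3 and 5.56, 12.5 and 7.68 CPM in 6S-A Ngn3 cells. Cenpa was at 33.7, 42.8 and 4.61 CPM, then 36.3, 25.7 and 6.14 CPM, against 9.91, 0 and 20.9 CPM and 3.02, 17.2 and 3.38 CPM. Bub3 was high throughout, at 178 to 226 CPM in the 6 no-color replicates, 156 to 219 CPM in WT Ngn3 and 155 to 271 CPM in 6S-A Ngn3 cells. Pttg1 reached 159 CPM in the passage 5 no-color replicate of WT Ngn3 organoids and lay between 23.2 and 65.3 CPM in the 11 others. In the 6S-A Ngn3 replicate of passage 5, 17 of the 40 genes had no read. Ductal markers summed to 16585 to 40131 CPM in the 6 no-color replicates, 14502 to 17054 CPM in WT Ngn3 and 10395 to 25711 CPM in 6S-A Ngn3 cells, and the hormones to at most 10.6 CPM, 7.11 to 3038 CPM and 38.1 to 3139 CPM in the same order. Their part in the 8-day values was not tested.

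The single 6S-A Ngn3 pool that stood apart at 8 days had a summed level of 1164 CPM, where the other 5 pools of the group ranged from 283 to 480 CPM. Without it, 14 of the 40 genes were called lower with 6S-A Ngn3, beside 0.702% of all genes. The median log2 fold change was then -3.26. The pool was picked for its high level of these same genes, so leaving it out lowers their values by construction. These calls are therefore no separate test. The 14 were Mki67, Top2a, Plk1, Cdc25c, Cdca3, Aurkb, Birc5, Cenpe, Cenpf, Ndc80, Kif11, Kif4, Kif23 and Prc1. Without the whole of replicate 2 of 6S-A Ngn3, 4 of the 40 were called, beside 0.279% of all genes called lower. In the fit blocked on replicate number, Kif11, Kif23 and Prc1 were called with 6S-A Ngn3 (edgeR adjusted p = 0.050, 0.039 and 0.027), beside 1.18% of all genes called lower, and 0 with WT Ngn3, beside 0.619%.

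Between 6S-A and WT Ngn3 at 8 days, edgeR called 0 of the 40 genes, beside 0% of all genes, with 0 of the 40 at an unadjusted p under 0.05, beside 2.11%. DESeq2 called 0 of the 40. The median difference was -0.44, and 35 of 40 values were negative. Without the 6S-A Ngn3 pool that stood apart, edgeR again called 0, but 18 of the 40 had an unadjusted p under 0.05, beside 2.63% of all genes. The median difference was then -1.80. As this pool was picked for its high level of these genes, lower values without it follow from the choice. Without the whole of replicate 2 of 6S-A Ngn3, 15 had an unadjusted p under 0.05, beside 2.47%. The no-color cells of 6S-A and of WT Ngn3 organoids were compared in the same way. By edgeR, 0 of the 40 were called, beside 0% of all genes, and 1 had an unadjusted p under 0.05, beside 8.37%. DESeq2 also called 0 of the 40, with 2 genes lower and 6 higher among all genes. Their median difference was -0.25.

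Over time, the no-color cells of 8 days had a median log2 difference of -0.53 from the GFP only cells of 2 days, where the median over all genes was -0.18. By edgeR, 0 of the 40 genes were called in this comparison, beside 0.681% of all genes called lower, and 2 had an unadjusted p under 0.05, beside 14.6%. DESeq2 also called 0 of the 40, with 510 of all genes lower. The change of the Ngn3 effect from 2 to 8 days was called by edgeR for 0 of the 40 with WT Ngn3 (0% of all genes) and 0 with 6S-A Ngn3 (0.012% of all genes), with 0 and 0 at an unadjusted p under 0.05, beside 5.29% and 5.7%. DESeq2 called 0 and 0 of the 40, beside 32 genes lower and 32 higher for WT Ngn3 and 28 lower and 33 higher for 6S-A Ngn3 among all genes. For 6S-A Ngn3, 18 of the 40 had an unadjusted p under 0.05 without the 8-day pool that stood apart, beside 6.19% of all genes, and 13 without the whole of replicate 2 of that group, beside 6.52%, with 0 called each time. That pool was picked for its high level of these genes. The median change was -0.05 and -0.25 with a median SE of 1.19 in each, and day and kind of control cell cannot be told apart here.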

How the data were processed

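RNA of pools of 50 sorted cells was amplified by Smart-seq2 without molecular identifiers, and the authors aligned the reads with GSNAP to mm10 and deposited raw counts per Ensembl 81 gene from HTSeq (0.5.3p3). The strand setting was not given in the sources used here. The table held 46078 genes and 92 spike-ins. Lines naming no gene were left out of library sizes (not aligned 22.5%, no feature 14.4%, ambiguous 8.06% of reads). Libraries with under 30% spike-in reads, over 1000000 gene reads and over 10000 genes were retained (76 of 77, with 1 library of WT Ngn3 replicate 2 at 8 days left out) and technical repeats were summed, giving 21 biological replicates, 3 in each of 7 groups. A gene was tested when 5 or more libraries of that day had reads of it (23844 at 2 days, 19696 at 8 days, 24945 jointly).

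The main test was edgeR 4.0.16 (quasi-likelihood, robust, TMM; R 4.3.3) with an adjusted p threshold of 0.05, and the SE is the fold change over the root of F. DESeq2 1.42.0, scran 1.30.0 and size-factor, filter, library and replicate alternatives were run. The fits were also run on simulated data, and the outcome of that run is not given here. CPM were TMM-normalised over the 21 replicates, or over the 76 libraries for pools. Technical repeats 2 and 3 of replicates 2 and 3 at 2 days differed by close to the sampling noise (chi-square per gene from 1.59), and 1 of each such pair was left out of the pool counts. Same-numbered replicates deviated together (r from 0.159 to 0.567 at 2 days and 0.124 to 0.68 at 8 days). For different numbers r ran from -0.519 to 0.003 at 2 days and from -0.48 to 0.206 at 8 days. The main test used the group only and not this pairing. Numbers were taken to pair samples in the fits with a replicate block and in the same-number differences, and this pairing comes from the data. The members, lists and alternatives were chosen with earlier results of these data known. Values in every replicate are given for the 2 genes of each role with the highest mean CPM and for named partners, while those of Bub1 and Cdc20 were added after their values were seen.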

Additional observations from a re-analysis of the deposited data

Results flagged for a closer look

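In 6S-A Ngn3 at 8 days, the second pool of replicate 2 lay far from the other 5 pools of its group. Its summed level of the 40 genes was 1163.73 CPM, where the others ranged from 283 to 480 CPM, and its gap to the nearest of them was 0.776 of the whole range. Mki67 in the same pool was at 38.06 CPM, with a gap of 0.857 of the range. Both gaps exceed Dixon's critical value of 0.625 for 6 pools. That value is set for chance to exceed it in about 1 in 20 groups of independent pools. The rate does not hold here, since some of these pools are technical repeats of the same biological replicate. The other groups of 8 days and both ends of each range were searched as well. Mki67 is also among the 40 genes, so its gap is no separate evidence.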

How the results depend on the processing

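At 8 days the median SE was 1.02 to 1.05 against 0.30 to 0.31 at 2 days, the replicates had 2397470 to 17919627 reads, and several were 1 pool. The part of depth, pools and passage in these errors was not tested. Counts of genes called lower are given out of 40. At 2 days, other size factors, DESeq2, filters, omission of the near-identical repeats and the replicate block gave 26 to 34 for WT Ngn3. The share of all genes called lower was 4.48% to 8.53%. For 6S-A Ngn3 they gave 30 to 36, beside 6.83% to 12.2%. The block gave 28 and 35, beside 8.53% and 12.1%. It changed no other count by over 1.5 times except 6S-A Ngn3 at 8 days. Keeping all 77 libraries left the 2-day data unchanged, since the library that failed the limits was of 8 days. Leaving out 1 replicate gave 16 to 33 for WT Ngn3, beside 3.49% to 5.59% of all genes, and 28 to 35 for 6S-A Ngn3, beside 6.84% to 9.26%. Without the 2-day 6S-A Ngn3 pool that stood apart they were 20 and 35, beside 5.31% and 8.83% of all genes. Without replicate 2 of all 2-day groups the count for WT Ngn3 was 4, beside 1.68%. With technical repeats 1, 3, 4, 5 and 6 alone the count for WT Ngn3 was 0, 1, 0, 1 and 0, beside 0.615% to 2.11% of all genes. With 1, 3, 4 and 6 alone it was 1, 0, 4 and 0 for 6S-A Ngn3, beside 1.87% to 4.81%. These fits had 1 pool per replicate. The comparison of 6S-A with WT Ngn3 gave 3 with repeat 5, beside 0.132% of all genes.

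At 8 days the count for 6S-A Ngn3 is given with the share of all genes called lower, which was 0.34% in the main fit. It was 5 by DESeq2 (1.79%), 13 with no filter (1.4%) and 7 with the first technical repeat (0.49%). It was 3 with the replicate block (1.18%), 14 without the pool that stood apart (0.702%) and 0 to 4 without 1 replicate (0.158% to 0.378%). For WT Ngn3, where the main share was 0.173%, the count was 8 with no filter (0.92%) and 1 without replicate 3 of all 8-day groups (0.11%). For no-color against GFP only cells it was 1 with no filter (1.75%) and 0 to 1 without 1 replicate. The call was Ect2 without replicate 2 of the no-color cells of WT Ngn3 organoids, with 491 lower among all genes. Single technical repeats other than the first, the omission of 1 pool and of 1 replicate number from every group were chosen after seeing the data. The cause was not tested.

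Fitted log2 values that turned positive were, for WT Ngn3 with the first repeat alone, Ccnf 0.078, Bub3 0.228, Cenpa 0.179, Hmmr 0.274, Kif20a 0.099, Cdc20 0.076, Ube2c 0.53 and Pttg1 0.383; with repeat 4 alone, Mybl2 0.201; and with repeat 6 alone, Ccnf 0.384 and Pttg1 0.106. For 6S-A Ngn3 they were, with the first repeat alone, Cdc25c 0.108, Bub3 0.13, Ube2c 0.515 and Pttg1 0.329; with repeat 3 alone, Plk1 0.209, Ccnf 0.691 and Ube2c 0.294; and with repeat 6 alone, Ccnf 0.231, Ube2c 0.424 and Pttg1 0.009. Ube2c was at 0.036 without replicate 1 of the 2-day groups and between -0.136 and 0.051 without 1 replicate. The cause was not tested.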
